A study of Homo sapiens with 3 samples.

Results

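Chromatin occupancy of HA-PSF-TFE3, a tagged fusion protein, was described at GDF15 and at 5 genes of the integrated stress response, DDIT4, TRIB3, SESN2, ATF4 and DDIT3. The members are peak summits, a summit being the base of highest enrichment in a peak, and they were chosen by position: a summit counted if it lay in a fixed hg19 window at 1 of the 6 genes. The windows held 41 of the 44983 summits of one library, replicate 8, and 23 of the 28084 of the other, replicate 9. The genes and windows were picked with results of these lists known, so all counts and scores below are descriptions and none was tested.

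The fusion, in which SFPQ (also called PSF) is joined to the transcription factor TFE3, carried an HA tag, through which it was immunoprecipitated. It was expressed in HK-2 cells, an established human proximal tubule line, from a construct switched on by doxycycline. Both ChIP libraries and the input DNA library came from such cells given 0.2 µg/ml doxycycline for 24 h, and per the study's methods the ChIP libraries came from separate clones of the line, so that each replicate is 1 clone. There was no uninduced or untagged group, the input signal was not used here, and the sequencing depth was not used here. The design text of the series names PRCC-TFE3 where the title and the sample labels name PSF-TFE3, and the labels were followed.

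The integrated stress response is set off when kinases that sense stress phosphorylate the initiation factor eIF2, which lowers protein synthesis in general but raises translation of ATF4. ATF4 is the transcription factor at the centre of the response, and it switches on DDIT3 (CHOP), TRIB3, SESN2 and other genes. GDF15 is a secreted stress cytokine of the TGF-beta superfamily. TFE3 belongs to the MiT/TFE factors, which recognise E-box sequences and control lysosomal and nutrient genes. In wild-type form these factors are held down by the growth kinase complex mTORC1. TFE3 fusions, per the study, had so far been regarded as escaping that restraint. DDIT4 (REDD1) and SESN2 both restrain mTORC1.

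The bases upstream of the gene starts are shown first, because they carry the E-box question for these genes. All 6 genes matched a RefSeq table of promoters on GRCh38.p14. The 250 bases before the start of ATF4 and DDIT3 hold the motif matches found among the members. Those of GDF15 and SESN2, the windows with the most summits and with none, hold no match. Capitals mark CACGTG, the E-box, in ATF4 and TGACTCA, a form of the AP-1 motif TGANTCA, in DDIT3.
ATF4, chr22:39520309-39520558, strand plus: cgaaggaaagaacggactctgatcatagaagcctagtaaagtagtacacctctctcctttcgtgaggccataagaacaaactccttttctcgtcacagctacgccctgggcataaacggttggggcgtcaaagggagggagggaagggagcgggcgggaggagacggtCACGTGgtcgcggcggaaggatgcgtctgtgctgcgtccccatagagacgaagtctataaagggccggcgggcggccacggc
DDIT3, chr12:57520515-57520764, strand minus: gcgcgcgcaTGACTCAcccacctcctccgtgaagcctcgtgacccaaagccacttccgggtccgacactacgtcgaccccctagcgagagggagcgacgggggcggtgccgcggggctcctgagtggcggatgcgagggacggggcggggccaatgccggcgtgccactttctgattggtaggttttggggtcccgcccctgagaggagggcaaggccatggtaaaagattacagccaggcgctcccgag
GDF15, chr19:18385908-18386157, strand plus: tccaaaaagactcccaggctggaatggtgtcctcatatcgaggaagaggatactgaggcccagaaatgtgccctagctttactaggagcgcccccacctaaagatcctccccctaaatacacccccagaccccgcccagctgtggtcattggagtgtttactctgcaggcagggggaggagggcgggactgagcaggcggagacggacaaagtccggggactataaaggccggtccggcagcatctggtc
SESN2, chr1:28259268-28259517, strand plus: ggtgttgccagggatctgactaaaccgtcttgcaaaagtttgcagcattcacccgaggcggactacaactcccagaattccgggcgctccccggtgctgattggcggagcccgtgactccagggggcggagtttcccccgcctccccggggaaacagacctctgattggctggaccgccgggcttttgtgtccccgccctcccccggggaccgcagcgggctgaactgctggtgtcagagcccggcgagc

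A set of 4 motifs was searched on both strands, from 250 bases before to 50 bases after each start. CACGTG was found in 7.26% of all 35116 promoters of the table, and among the members in ATF4 alone, from base -82 to base -77 counted from the start shown, and from -85 to -80 counted from the other start listed for ATF4. TGANTCA was found in 7.71% of all promoters, and among the members in DDIT3 alone, from base -241 to base -235, or -238 to -232 from its other listed start. CATGTG, the core of the related M-box, was found in 11.1% of all promoters, and TGATGNAA, the start of the element bound by ATF4 with C/EBP factors, in 3.62%. Neither was found in a member. Some genes have more than 1 listed promoter. Counted by gene, CACGTG was found in 8.77% of all 27305 genes and TGANTCA in 9.37%, each beside 1 of the 6 members. By gene, CATGTG was found in 13.4% and TGATGNAA in 4.46%. No promoter of the members held more than 1 match, so no matches overlapped. The summit lists are on hg19 and the promoters on GRCh38.p14, so no summit was placed on these letters, and a match is a description of the sequence only.

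The windows differed widely in how many summits they held. In replicate 8 the GDF15 window held 24 summits, TRIB3 10, DDIT4 4, DDIT3 2, ATF4 1 and SESN2 0. In replicate 9 they held 13, 6, 3, 1, 0 and 0 in the same order. The order of the genes was the same in both libraries, apart from the tie of ATF4 and SESN2 in replicate 9. The numbers for all windows together were 41 and 23, a mean of 32 ± 12.7 (SD, n = 2).

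**Figure D1:**
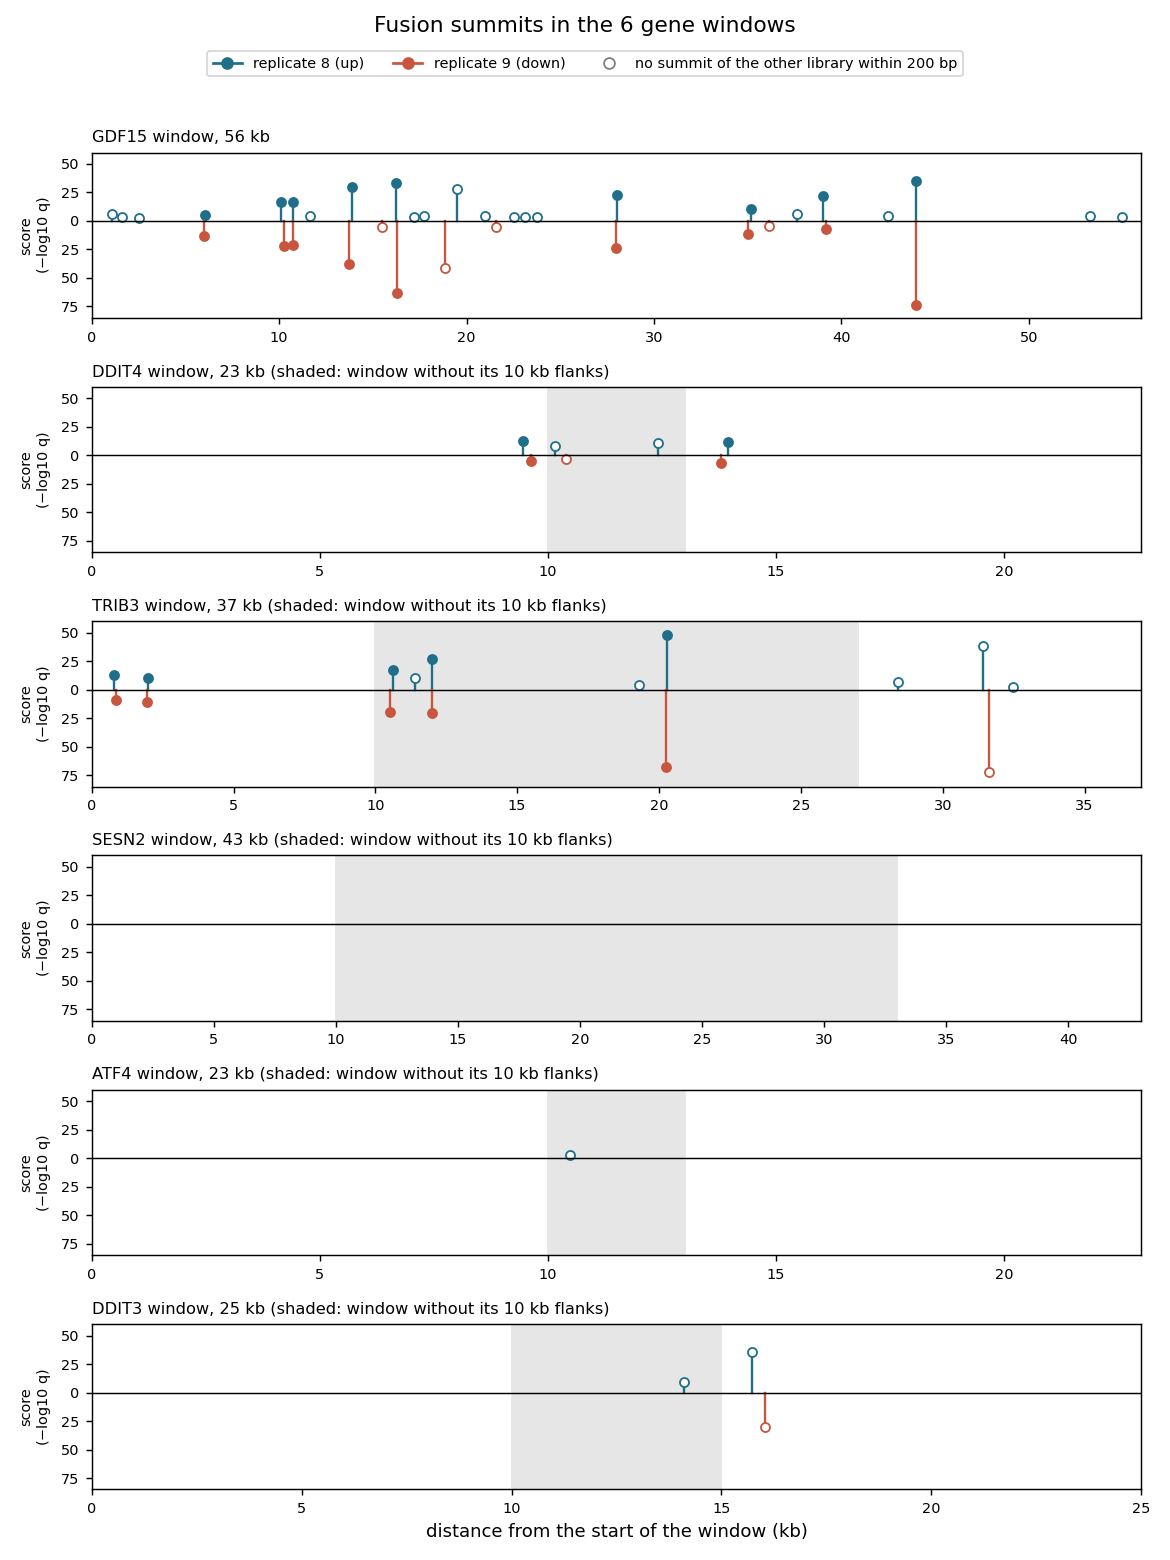
Score of each summit (vertical axis, −log10 q-value, replicate 8 upward and replicate 9 downward) against its distance from the start of the window in kb, for the 6 gene windows. Open circles have no summit of the other library within 200 bp. Grey shading marks a window without its 10 kb flanks. The GDF15 and TRIB3 windows hold 24 and 10 summits in replicate 8, the SESN2 window holds none, and the highest score shown is 73.9, in the GDF15 window in replicate 9.

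GDF15 had by far the most summits of the 6, in the longest window. Per 10 kb it held 4.29 summits in replicate 8 and 2.32 in replicate 9, beside 2.70 and 1.62 for TRIB3. Its window ran on chromosome 19 from 18475000 to 18531000, 56 kb, far longer than the RefSeq gene of 3019 bp. In gene order on GRCh38.p14 the protein-coding neighbours are PGPEP1 and LRRC25. The rule does not say where in the window GDF15 lies, so the summits are those of the GDF15 region and were not assigned to one of these genes. The whole replicate 8 list averaged 14.7 summits per Mb and that of replicate 9 averaged 9.19, with a median gap between neighbouring summits of 15.6 kb and 27.8 kb. In the GDF15 window the median gap was 1.53 kb in replicate 8 and 2.86 kb in replicate 9. Outside it the nearest summits lay about 48.1 kb away on the left in both libraries, and 17.6 kb and 48.5 kb away on the right.

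The density was compared with the rest of each list by 2 counts. When every chromosome was divided into tiles of 56 kb, none of the 54606 tiles held 24 summits of replicate 8, and the fullest held 21. In replicate 9, 8 tiles held 13 or more. Tiles fall at fixed places, from the first base of each chromosome to its last summit, with or without genes, whereas the window was set around the gene. Spans of 56 kb opened at every summit were therefore also counted. In replicate 8 no span held more than 24, and the only separate span with that many opened at 18476108, the leftmost GDF15 summit. In replicate 9, 18 separate spans elsewhere held at least the 13 of GDF15, and the fullest held 17. The window's length bears on this order, since its outermost replicate 8 summits lie 1.11 kb and 1.02 kb inside its edges, so the rank at exactly 56 kb is a description of the choice as well as of the region. Without a fixed length, when summits no more than 10 kb apart were joined into runs, 2 of the 26166 runs of replicate 8, the GDF15 run included, held 24 or more summits. In replicate 9, 6 of the 19178 runs, again with that of GDF15, held 13 or more.

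By raw score, the 2 libraries differed here in the number of summits under 10 and not of those at 10 or more. The score is the −log10 q-value of a summit within its own library and is not normalised between libraries. With scores of at least 10 the GDF15 window held 9 summits in replicate 8 and 9 in replicate 9. The shorter TRIB3 window, of 37 kb, held 7 and 5 such summits. Below 10 the GDF15 window held 15 in replicate 8 and 4 in replicate 9. At this minimum score 14 separate spans of 56 kb elsewhere in replicate 8 and 11 in replicate 9 held at least 9 summits, so among stronger summits GDF15 was no longer the fullest region. When the replicate 8 list was shortened to the length of the replicate 9 list by dropping its weakest summits, 9 of its 24 GDF15 summits remained, beside the 13 of replicate 9. By rank the numbers therefore did differ.

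**Figure D2:**
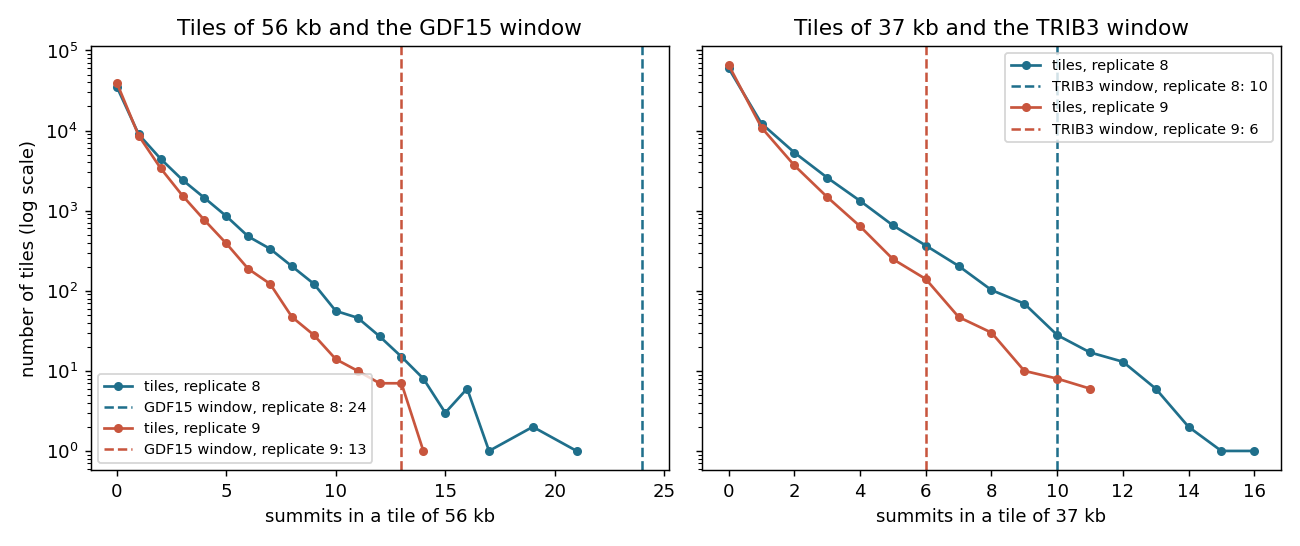
Number of genome tiles (vertical log axis) by the number of summits they hold (horizontal axis), for tiles of 56 kb beside the GDF15 window (left) and of 37 kb beside the TRIB3 window (right). Dashed lines give the windows' own counts: 24 and 13 summits for GDF15 and 10 and 6 for TRIB3 in replicates 8 and 9, with the replicate 8 GDF15 line beyond the fullest tile, which held 21.

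Within the GDF15 window 9 summit pairs lay within 200 bp of each other, each the nearest of the other. Tiles of 56 kb with at least 1 such pair made up 24.4% of all tiles, and 8 of the 54606 tiles held 9 or more. The strongest pair lay at 18518961 in replicate 8 and 18518968 in replicate 9, 7 bp apart. Its score was 34.8 in replicate 8 and 73.9 in replicate 9, which ranked it 2093 and 345 in the lists. The next lay 44 bp apart, at 18491251 and 18491295, with scores of 33.2 and 63.6. The pair at 18488872 and 18488731 had scores of 30.2 and 37.6. These 3 pairs were in the upper part of both lists, with score percentiles of 93.0 to 95.3 in replicate 8 and 89.1 to 98.8 in replicate 9, where 100 is the strongest.

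The remaining GDF15 pairs ranked lower. Neighbouring pairs at 18485114 and 18485725 in replicate 8 had scores of 16.4 and 16.7, and of 21.99 and 21.1 in replicate 9. The pair at 18503046 had scores of 22.6 and 24.1, and that at 18510201 had scores of 10.8 and 11.6. In 2 pairs the libraries ranked the site differently. The summit at 18513997 had a score of 21.9 in replicate 8 and a partner of 6.78 in replicate 9, a fall of 52.7 percentile points, and 4.41% of all pairs fell at least as far. The summit at 18481027 had a score of 5.57 and a partner of 13.3, a rise of 25.5 points, and 2.82% of all pairs rose at least as far.

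A strong site of the GDF15 window did not count as shared. Replicate 8 had a summit of score 27.8 at 18494497 and replicate 9 had one of score 41.4 at 18493859, 638 bp away, at percentiles of 91.2 and 91.1. Each was the nearest summit of the other list. Whether these are 2 sites or 1 site placed differently was not tested. The other unshared summits of replicate 8 in this window, 14 of 15, had scores under 6. Of these, 10 lay more than 1 kb from any replicate 9 summit. The GDF15 summits had a median percentile of 29.6 in replicate 8 and 74.4 in replicate 9.

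TRIB3 held the strongest replicate 8 summit of the 6 windows. TRIB3 is a pseudokinase that ATF4 and CHOP induce and that binds the kinase AKT. Its window, chromosome 20 from 351000 to 388000, is 37 kb, or 17 kb without the 10 kb flanks, beside a RefSeq gene length of 16800 bp. The gene start then lies near 361000, to within about 1 kb. Of the 10 summits in replicate 8 and 6 in replicate 9, 5 in each library had a partner within 200 bp, whereas 18.1% of all tiles of 37 kb held any pair. Of the 82643 tiles, 68 held 10 or more replicate 8 summits, 241 held 6 or more of replicate 9, and 154 held 5 or more pairs. With spans of 37 kb opened at every summit, 170 separate spans elsewhere in replicate 8 and 439 in replicate 9 held at least as many summits as the TRIB3 window.

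The paired and strong TRIB3 sites fell into 4 places. Near the start, summits at 361621 in replicate 8 and 361530 in replicate 9 had scores of 17.5 and 19.5. Summits at 362987 and 362997, 10 bp apart and about 2 kb past the start, had scores of 26.4 and 20.9. Inside the gene, at 371298 and 371243 and about 10.3 kb past the start, the scores were 47.5 and 67.5, with ranks of 555 and 541. This pair was in the top 2% of both lists, at percentiles of 98.8 and 98.1. Past the end of the gene, about 21.4 kb from its start, summits at 382426 and 382642 had scores of 38.5 and 72.5 but were 216 bp apart, just beyond the limit for a shared summit. Far upstream, about -9.2 and -8.0 kb from the start, 2 pairs had scores of 8.92 to 12.4.

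Of the 5 replicate 8 summits of this window without a partner within 200 bp, the one at 382426 was strong and the others had scores of 2.65 to 10.3. A site that was stronger in replicate 9, but not in replicate 8, lay outside the window. The nearest summits on its left, 7.79 kb and 7.75 kb beyond the edge, were at 343211 in replicate 8 and 343251 in replicate 9, with scores of 34.3 and 109. That replicate 9 summit was stronger than any inside the 6 windows. The replicate 8 summit at 343211 scored below those at 371298 and 382426 inside the window, which had 47.5 and 38.5.

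DDIT4 had a small group of summits around the gene, all of moderate or low score. DDIT4 inhibits mTORC1 through the TSC complex and is induced by stress and hypoxia. Its window was chromosome 10 from 74023000 to 74046000, and the gene start lies near 74033000. Replicate 8 had 4 summits with scores of 7.97 to 12.4 and replicate 9 had 3 with scores of 3.14 to 6.95. Every replicate 8 summit here scored above every replicate 9 summit. Scores are not normalised between the libraries, and 46.5% of all pairs scored higher in replicate 9.

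In the DDIT4 window 2 pairs lay within 200 bp, and 12.4% of all tiles of 23 kb held a pair. The leftmost was at 74032452 and 74032624 with scores of 12.4 and 5.31. The other, about 3.9 kb past the approximate start, was at 74036938 and 74036794 with scores of 11.9 and 6.95. The percentile fell by 45.3 points from replicate 8 to replicate 9 in the leftmost pair and fell by 32.2 points in the other. Of all pairs in the lists, 8.21% and 18.8% fell at least as far. Between them, summits at 74033160 and 74033385 were 225 bp apart with scores of 7.97 and 3.14. Replicate 8 alone had a summit at 74035417 with a score of 10.6, 1377 bp from the nearest of replicate 9. Just outside the window, replicate 8 had a summit of score 3.67 at 2.17 kb beyond the left edge, and replicate 9 had none until 153.8 kb on the left. Beyond the right edge, replicate 8 had a summit of score 2.61 at 6.46 kb, and replicate 9 had one of score 11.97 at 9.95 kb, above every replicate 9 summit inside the window. The gene start is placed only to about 1 kb, so the leftmost pair and the summits at 74033160 and 74033385 were not assigned to one side of it.

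DDIT3 had 1 strong site per library, within about 1 kb of the approximate gene start, with summits at different positions. DDIT3 encodes CHOP, which promotes death of cells under lasting stress. It lies on the minus strand, its window ran on chromosome 12 from 57900000 to 57925000, and the start lies near 57915000. In replicate 8 the site was at 57915719, with a score of 35.4 that placed it 2004th in the list. In replicate 9 it was at 57916046, with a score of 30.6 that placed it 4336th. The summits were 327 bp apart, so that no DDIT3 summit was shared within 200 bp, as against 13.3% of tiles of 25 kb with a pair. A further summit of replicate 8 alone, at 57914098, had a score of 9.18 and also lay within about 1 kb of the approximate start. The start is placed only to about 1 kb, so which summit lies nearest to it, and on which side, is not settled. The next summits outside the window were 22.5 kb away on the left in both libraries and 221 kb away on the right.

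ATF4, the gene whose promoter holds the E-box, had almost no summit. Its window was chromosome 22 from 39906000 to 39929000. Replicate 8 had a single summit at 39916483, within about 1 kb of the approximate gene start, on a side that this precision does not settle, with a score of 2.61, at percentile 3.24 of its list. Replicate 9 had none there, and its nearest summit lay 25653 bp from that position. Tiles of 23 kb, the length of this window, held at least 1 summit of replicate 8 in 19.99% and of replicate 9 in 14.55% of cases. In each library an empty tile of this length was therefore more common than an occupied one, over stretches with and without genes. Outside the window the nearest summits on the left had scores of 33.4 and 28.2 and lay 15.2 kb beyond the edge in both libraries. A weak replicate 8 summit with a score of 4.95 lay 0.064 kb past the right edge. A summit missing from a list means that no peak there passed the authors' threshold, and binding below it cannot be told from none.

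SESN2, which encodes a leucine-binding inhibitor of mTORC1, had no summit in either library. Its window, chromosome 1 from 28576000 to 28619000, was 43 kb long. Tiles of that length held at least 1 summit of replicate 8 in 30.4% and of replicate 9 in 23.2% of cases, and a pair in 20.2%. Most tiles of this length were therefore empty. Tiles cover stretches with and without genes, and windows set at other genes were not counted. The nearest summits lay 3.59 kb beyond the left edge in replicate 8, with a score of 10.2, and 3.79 kb beyond it in replicate 9, with a score of 7.54. The stretch without a summit was 51.0 kb in replicate 8 and 68.8 kb in replicate 9, and 26.3% and 31.2% of all gaps in the lists were at least as long.

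The share of summits found in both libraries, over all 6 windows, moved with the distance allowed, and so did its order against the lists as a whole. Of the 41 replicate 8 summits, 16 (39.0%) had a replicate 9 summit within 200 bp, beside 47.9% of the whole list. Of the 23 replicate 9 summits, 16 (69.6%) had a replicate 8 summit within it, beside 76.6% of the whole list. The 95% Wilson intervals of the window shares, 25.7 to 54.3% and 49.1 to 84.4%, both include the share of the whole list, and they cover counting error only. Within 500 bp the window counts were 19 of 41 (46.3%) and 19 of 23 (82.6%), beside 55.5% and 87.7%. Within 1000 bp, a distance added after seeing the data, they were 27 of 41 (65.9%) and 23 of 23 (100%), beside 60.9% and 91.3%. The 6 windows pooled were thus below the lists within 200 and 500 bp and above them within 1000 bp. Without the GDF15 window, left out after seeing the data, they were above the lists within 500 bp too. The counts were then 10 of 17 (58.8%) in replicate 8 and 10 of 10 (100%) in replicate 9. The 95% Wilson intervals within 500 and 1000 bp, with and without GDF15, again include the whole-list shares. Within 500 bp those of all 6 windows were 32.1 to 61.3% in replicate 8 and 62.9 to 93.0% in replicate 9. The order of windows and lists is therefore not settled. The 3 further pairs within 500 bp were those at 74033160 in DDIT4, 382426 in TRIB3 and 57915719 in DDIT3. Within 1000 bp the mutually nearest GDF15 pairs at 18494497 and 18496003, 638 bp and 555 bp apart, were added. The other summits added within 1000 bp were not new pairs. Each, such as 18486664 in GDF15 and 362415 in TRIB3, lay near a summit whose own nearest summit was another. The number of windows with a shared summit was 3 within 200 bp and 4 within 500 bp.

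The share of summits with a partner depended on the score. In replicate 8, none of the 15 window summits with a score under 5 had a replicate 9 summit within 200 bp, beside 14.0% of all such summits. Of the 14 with scores from 10 to 30, 11 did, beside 76.9%. Of the 6 with a score of 30 or more, 4 did, beside 92.6%. In replicate 9, all 8 window summits with scores from 10 to 30 had a partner, beside 85.3% of all, and 4 of the 7 with a score of 30 or more did, beside 89.3%. The 5 strong summits without a partner within 200 bp are those already named in GDF15, TRIB3 and DDIT3, and all had a summit of the other list within 1 kb.

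**Figure D3:**
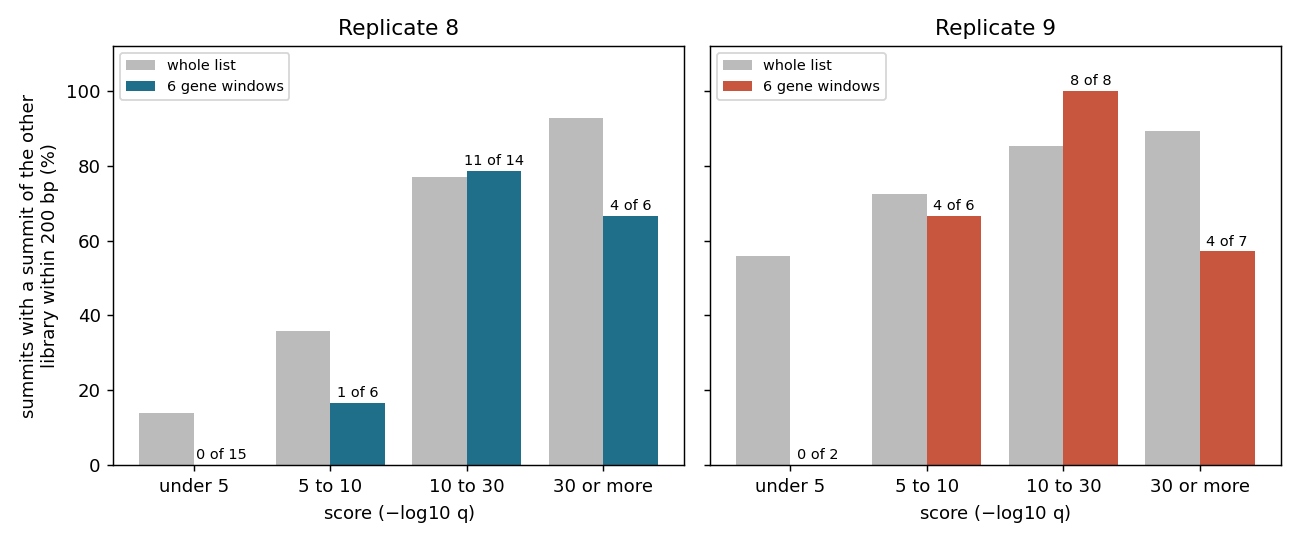
Share of summits with a summit of the other library within 200 bp (vertical axis, %) by score (horizontal axis), for the whole list in grey and the 6 gene windows in colour, with counts above the bars. In replicate 8 the share rises from 0 of 15 below a score of 5 to 11 of 14 between 10 and 30, and is 4 of 6 at 30 or more.

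By score, the windows differed in where they lay in the lists. The median percentile of all window summits was 55.0 in replicate 8 and 71.9 in replicate 9. By window it was lowest in replicate 8 for ATF4, at 3.24, and GDF15, at 29.6, and in replicate 9 for DDIT4, at 21.1. In replicate 8, 7 of 41 (17.1%) were in the top 10% of the list, and in replicate 9, 5 of 23 (21.7%). The 16 pairs were a median of 65 bp apart, with a range from 7 to 185 bp, beside a median of 52 bp over all 21518 pairs. The percentile was lower in replicate 9 than in replicate 8 in all but 3 of the 16 pairs, with a median difference of -6.15 points and an SD of 19.4 over pairs. Over all pairs the median difference was -10.5 points, and 25.6% were higher in replicate 9. These percentiles come from lists of unequal length, and no direction is read from them, as the window value turned to 0.0259 points when only pairs within 50 bp were kept and to 4.57 points when paired summits were ranked among themselves.

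**Figure D4:**
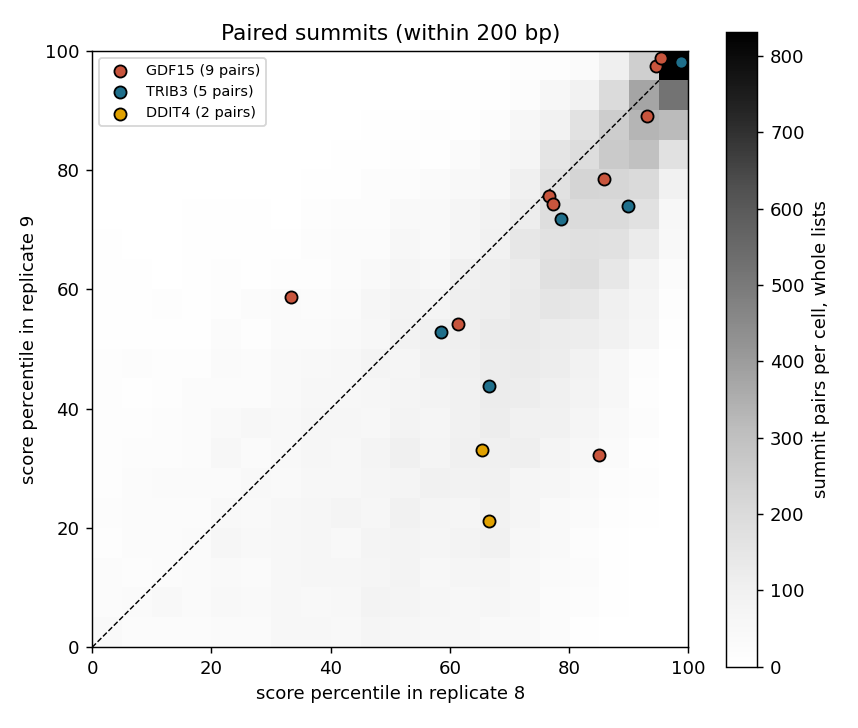
Score percentile in replicate 8 (horizontal axis) and replicate 9 (vertical axis) of the 16 summit pairs within 200 bp in the GDF15, TRIB3 and DDIT4 windows (points), over the density of all 21518 pairs (grey). The strongest GDF15 and TRIB3 pairs lie at the upper right, and both DDIT4 pairs lie below the diagonal, at percentiles of 66.5 and 65.3 in replicate 8 but 21.1 and 33.1 in replicate 9.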

How the data were processed

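The authors made 2 ChIP libraries and 1 input library from HK-2 cells expressing HA-PSF-TFE3. The deposited values are 1 summit per peak with a −log10 q-value as score, called by the authors with MACS2 in each library against the input, without pooling (MACS2 and hg19 per the submitters' processing notes, the MACS2 version not given in the sources used here). The study's methods also name hg38, and state the peak cutoff on the p scale in one place and on the q scale in another. The lowest deposited scores, 1.37 and 1.33, are those of a q cutoff of 0.05. In replicate 8, 364 summits, and in replicate 9, 262, lay past the ends of hg38 chromosomes, so hg19 was taken as the build. No hg19 genome or annotation was used here, and coordinates were not converted. Summits at other stress response genes were therefore not analysed here, and the lists hold no expression by which the cell type could be checked.

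Summits with a start in a window were counted. A summit was shared if the other list had one no more than 200 bp away, and pairs were mutually nearest summits within that distance. Percentiles are of the score within a list. Gene starts were placed 10 kb inside a window, to about 1 kb, except for GDF15. The members, lists and windows were chosen with earlier results of these data known, and the genes named are all 6 with their shared pairs, strongest summits and main summits in 1 library alone, plus 30 stress response genes for promoters. Nothing was tested. Alternatives changed the distance, the minimum score, the list length, the windows, the tiles and the ranking. Intervals cover counting error only. Distance functions were tested on simulated data. Python 3.11.15, numpy 2.4.6, pandas 2.3.3, scipy 1.17.1 and matplotlib 3.10.9 were used.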

Additional observations from a re-analysis of the deposited data

How the results depend on the processing

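The mean number of summits in the 6 windows stayed within 1.5 times its value of 32 when windows were narrowed or widened, with a minimum score of 5 and with equal numbers of summits in both lists. It was 17.5 with a minimum score of 10 and 13.5 without the GDF15 window, an alternative chosen after seeing the data. Each library alone gave 23 to 41. The replicate 8 share of shared summits moved from 39.0% to 14.6% within 50 bp (whole list 23.3%), 65.9% within 1000 bp (whole list 60.9%), 61.5% with a minimum score of 5, 55% with one of 10 and 65.2% with equal numbers of summits. That of replicate 9 moved to 26.1% within 50 bp (whole list 37.4%) and to 100% within 1000 bp (whole list 91.3%), a distance added after seeing the data. With all 6 windows pooled, the order of windows and list turned at 1000 bp in both libraries. Without the GDF15 window it turned at 500 bp. In the whole replicate 8 list the share within 200 bp also rose with score, from 14.0% under 5 to 92.6% at 30 or more. Whole-list shares at the minimum scores and at equal numbers of summits are not given here. The number of windows with a shared summit ran from 2 to 4. The median percentile difference of pairs turned from -6.15 to 0.0259 points within 50 bp and to 4.57 points when ranked among paired summits only, and the cause was not tested. Its direction is therefore not stable. With a minimum score of 10 the share of tiles with a pair fell to 7.04% for 23 kb, 7.57% for 25 kb, 10.6% for 37 kb, 12.01% for 43 kb and 14.9% for 56 kb. Shares and differences need both libraries, so leaving one out gives no value. Sequencing depth was not used, and a site listed in 1 library alone is not shown to be absent from the other. With 1 ChIP group no difference between conditions was tested.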

Other observations

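Promoters of a wider list of integrated stress response genes were searched for the same letters, by symbol in the RefSeq table, with no summit placed on them. Of 30 listed genes 25 matched. TGATGNAA, the start of the element bound by ATF4 with C/EBP factors, was found at 7 of these 25 genes, ATF3, ASNS, CHAC1, SLC3A2, CEBPG, HERPUD1 and FGF21, beside 4.46% of all 27305 genes in the table. CACGTG was found at 3 of the 25, SLC7A5, EIF2AK2 and HERPUD1, beside 8.77% of all genes. TGANTCA was found at 4, SLC3A2, EIF2AK4, HSPA5 and ATF5, beside 9.37%, and CATGTG at 2, SLC3A2 and STC2, beside 13.4%. None of the 6 genes with windows held TGATGNAA in the bases searched. The list was chosen with results of these data known and its genes share a known regulator, so these are descriptions of the sequences.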
